A study of Oryza sativa with 12 samples.

Results

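A stretch of rice chromosome 7 was followed locus by locus, from Os07g0203800 to Os07g0217800 in ID order, in seeds with and without the gene OsMFT1. The deposited tables list 68 IDs in this range. The 50 IDs with at least 1 FPKM (fragments per kilobase of gene, scaled to library size) in 3 or more of the 12 libraries are the members described here, out of 22017 IDs in all that passed the same filter. The range had been chosen because its loci stood higher in the knockout than in the wild type. Genotype differences of the members are therefore given as a description with no test, and so are the salt differences in osmft1 and the interaction at the loci raised most. Salt was tested at the other members, and in WT at all of them, in libraries that had also served to pick the range.

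OsMFT1 belongs to the MOTHER OF FT AND TFL1 family, relatives of the flowering signal FT, several of which control how seeds stay dormant or germinate. A germinating cereal seed holds an embryo that begins to grow and an endosperm whose reserves are broken down to feed it, and salt slows that process. In the RAP naming system of rice, IDs are numbered along each chromosome, so neighbouring numbers are neighbouring loci. The files pair no ID with a gene name, and no member matched the gene table used here. Loci therefore appear by ID, with no role given and no sequence shown.

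RNA-seq was done on total RNA from seeds of the cultivar Zhonghua 11 (the wild type, WT) and of an OsMFT1 knockout (osmft1). Surface-sterilised seeds lay on wet filter paper in dishes, with either water or 300 mM NaCl renewed daily. Each genotype had 3 libraries per treatment, which makes 4 groups and 12 libraries. The design text speaks of mutant lines, but the labels give no allele, line, seed lot or sampling time for a library, so the 3 libraries of a group may be partly technical repeats, and a difference in germination stage cannot be told apart from an effect of genotype or salt. In whole seeds, a change in the share of a tissue and a change in RNA per cell cannot be told apart either. Seed markers were not checked, for want of gene names.

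Library depth, recovered from the steps between values, lay between 14379728 and 15688593 reads. Along a principal component that took 59.8% of the variance in log2(FPKM + 1), the water libraries stood between -85.4 and -49.7. The osmft1 salt libraries, at 39.2, 63.7 and 57.5 (replicates 1, 2 and 3), all lay nearer to them than the WT salt libraries. Those stood at 73.8, 87.4 and 74.1. Nearest of all the salt libraries was osmft1 salt replicate 1. Os06g0498800, taken from published knowledge to be OsMFT1, had between 1 and 8 reads in a library. Its osmft1 minus WT difference in log2(FPKM + 1) was -0.04 in water and 0.21 in salt (exact permutation tests, two-sided, p = 1 and p = 0.4, where the smallest p that 3 against 3 libraries allow is 0.1). At this depth its level did not check the genotype labels.

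The rise in osmft1 was not spread evenly over the range. It sat in 10 of the 50 members, which were at least 2-fold higher in osmft1 in both treatments, and the other 40 differed less, with a median ratio of mean FPKM of 1.34 in water and 1.07 in salt. Here and below, 2-fold means a difference of 1 or more in log2(FPKM + 1), which is stricter at low loci than a ratio of mean FPKM. The 10 formed a pair, Os07g0206400 and Os07g0206500, and a group of 8 near the end, Os07g0213600, Os07g0213800, Os07g0214100, Os07g0214300, Os07g0214600, Os07g0215500, Os07g0216600 and Os07g0216700. Among all 20227 tested Os loci, 83 (0.41%) reached 2-fold in both treatments, 19 of them on chromosome 7. Over all 22017 tested IDs the share was 0.563%. The members were picked from this same contrast, so these shares describe the range and do not test it.

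**Figure D1:**
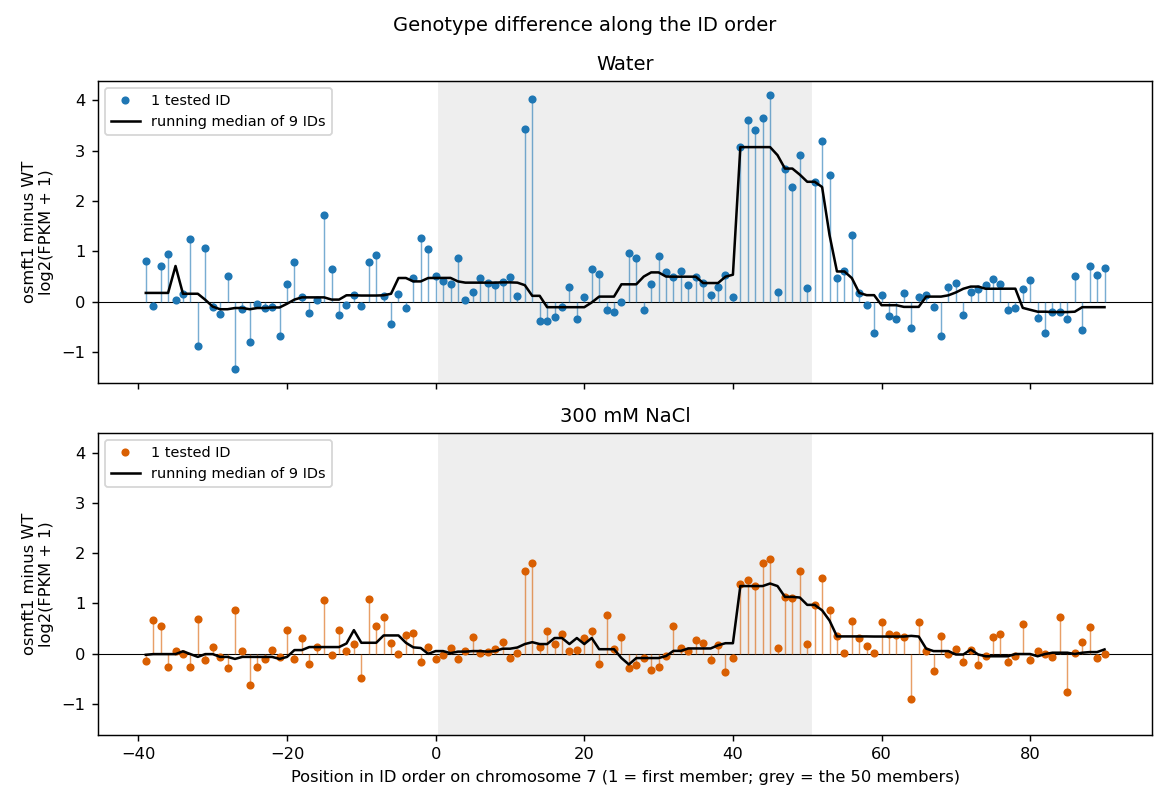
Difference between osmft1 and WT in log2(FPKM + 1) (vertical axis, mean of 3 libraries minus mean of 3) for the 50 members and 40 tested IDs on each side, in ID order along chromosome 7 (horizontal axis), in water (top) and salt (bottom). Points are single IDs, the line is the running median over 9 IDs, and grey marks the 50 members; the pair at positions 12 and 13 and the group from position 41 stand above their neighbours.

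Of the pair, Os07g0206500 stood at 327.3, 215.0 and 161.1 FPKM in the osmft1 water libraries (replicates 1, 2 and 3) and at 15.2, 14.2 and 9.58 FPKM in WT in water. In salt it stood at 95.1, 61.7 and 99.0 FPKM in osmft1 and at 17.9, 44.9 and 15.4 FPKM in WT. No osmft1 library overlapped a WT library of the same treatment, and the highest WT value in salt came from replicate 2. The log2(FPKM + 1) difference between the genotypes was 4.04 ± 0.37 (SE) in water and 1.80 ± 0.37 in salt. Os07g0206400, the ID just before it, stood at 211.5, 144.2 and 105.7 FPKM in osmft1 against 11.8, 15.3 and 11.7 FPKM in WT in water. Its salt values were 68.0, 45.4 and 66.0 FPKM in osmft1 and 13.6, 29.9 and 14.3 FPKM in WT. Here too the genotypes did not overlap, with differences of 3.43 ± 0.31 (SE) in water and 1.65 ± 0.31 in salt.

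In the group near the end, the largest difference belonged to Os07g0214600, at 195.2, 120.4 and 82.1 FPKM in osmft1 and 5.22, 6.17 and 7.53 FPKM in WT in water. In salt it stood at 38.3, 24.7 and 73.2 FPKM in osmft1 and at 8.23, 16.4 and 8.16 FPKM in WT. The groups were apart in both treatments, by 4.11 ± 0.40 (SE) in water and 1.89 ± 0.40 in salt on the log2 scale. Os07g0214300 was the most abundant of the 10, at 437.2, 254.6 and 159 FPKM in osmft1 against 17.9, 20.2 and 21.5 FPKM in WT in water. Its salt values were 84.0, 71.2 and 166.4 FPKM against 28.1, 37.8 and 20.8 FPKM. Again no libraries overlapped, and the differences were 3.65 ± 0.37 (SE) and 1.80 ± 0.37.

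Os07g0213600 was the least abundant, and it was nearly silent in WT in water at 0.64, 0.22 and 0.77 FPKM (15 reads in all) against 16.9, 12.2 and 7.89 FPKM (338 reads) in osmft1. In salt the genotypes overlapped at this locus, since osmft1 replicate 2 (1.97 FPKM) fell below WT replicate 2 (2.91 FPKM). The other values in salt were 6.16 and 6.90 FPKM in osmft1 and 0.23 and 0.91 FPKM in WT. It was the 1 member among the 10 with any overlap. Os07g0216600 had the smallest differences of the 10, 2.28 ± 0.21 (SE) in water and 1.12 ± 0.21 in salt, from 22.3, 17.7 and 12.2 FPKM in osmft1 against 2.42, 2.97 and 2.70 FPKM in WT in water.

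The remaining 4 of the group fell between these. In water, Os07g0213800 averaged 66.4 ± 28.4 FPKM in osmft1 against 4.23 ± 0.97 FPKM in WT (SD, n = 3). The corresponding means were 73.2 ± 36.5 and 5.45 ± 0.45 FPKM for Os07g0214100 (SD, n = 3). Os07g0215500 averaged 82.4 ± 46.2 and 11.0 ± 1.59 FPKM, and Os07g0216700 34.5 ± 16.1 and 3.53 ± 1.34 FPKM (SD, n = 3). All 4 kept the genotypes apart in both treatments. In salt their osmft1 means were 20.9 ± 10.4, 25.1 ± 11.3, 35.6 ± 11.4 and 13.6 ± 5.97 FPKM, against WT means of 6.69 ± 3.07, 8.71 ± 0.79, 16.1 ± 6.62 and 3.47 ± 0.60 FPKM, in the same order (SD, n = 3). Over the 10 members the ratio of mean FPKM, osmft1 to WT, ran from 6.46 to 22.8 in water (median 13.9) and from 2.21 to 4.15 in salt (median 3.20).

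**Figure D2:**
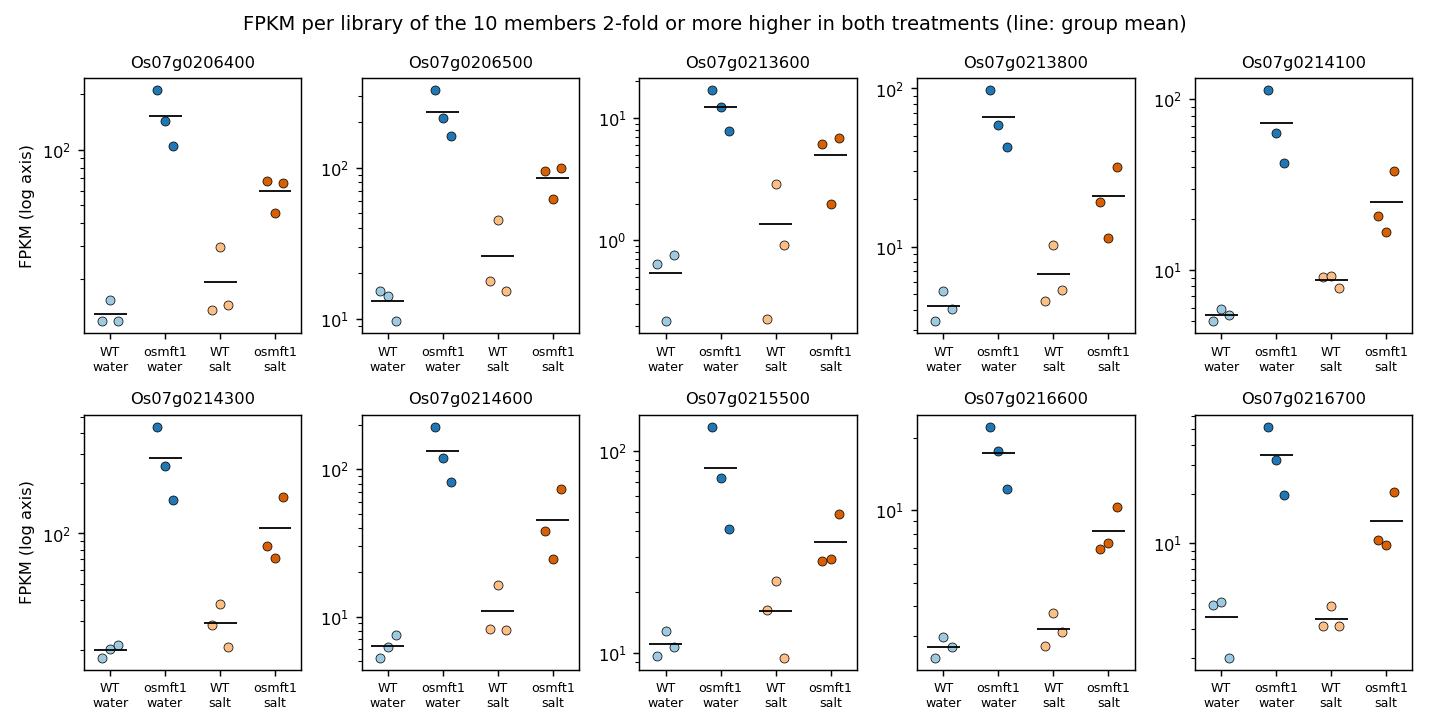
FPKM on log axes (each panel has its own range) for the 10 members at least 2-fold higher in osmft1 in both treatments. Each point is 1 library (replicates 1 to 3 from left to right within a group) and each line a group mean; osmft1 lies above WT in every panel, with overlap in salt at Os07g0213600.

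The 10 members varied together from library to library. In osmft1 in water, replicate 1 was the highest and replicate 3 the lowest of the 3 libraries at all 10. In WT in salt, replicate 2 was the highest at all 10, and in osmft1 in salt replicate 3 was the highest at 9 of them. Their summed level was 1606, 992.1 and 673.9 FPKM in osmft1 in water (replicates 1, 2 and 3), against 75.3, 87.4 and 76.0 FPKM in WT. In salt the sum was 377.6, 279.6 and 561 FPKM in osmft1 and 103.7, 181.9 and 88.3 FPKM in WT. The level of the summed loci thus differed more than 2-fold between osmft1 libraries of the same treatment, and osmft1 still lay above WT in every library of that treatment. At their peak in osmft1 water replicate 1 they held 0.108% of that library's reads.

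As a description of this shared movement, each member's deviation from its group mean was correlated between members over the 12 libraries. Among the 45 pairs of the 10 members, Pearson's r had a median of 0.81 and ran from 0.51 to 0.96. Among the 780 pairs of the other 40 members the median was 0.048 and the range -0.89 to 0.92, so some of those pairs moved together as closely. These points share libraries, scaling and 4 removed group means, and the 10 were chosen on level in the same libraries.

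The 10 also shared a narrow range of implied length, the smallest whole gene length that turns an ID's values into whole reads, at 601 to 746 bases. The other members ran from 530 to 4220 bases, with a median of 1451. The length was not particular to the 10. Past the range, Os07g0219300, Os07g0219400, Os07g0220000 and Os07g0222000 had implied lengths of 627, 627, 616 and 653 bases. The 1320 other tested Os loci of 601 to 746 bases had a median genotype difference of -0.15 in water and 0.13 in salt. Of these, 7 were 2-fold higher in osmft1 in both treatments, and Os07g0219400 is among the 7. Neighbouring loci of like length can be copies of 1 gene, in which case reads may have been split among them. Whether these are copies was not tested here.

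Between the 10 and the other 40 members there was a gap, although the cut at 2-fold in both treatments had itself set the 10 apart. The highest water difference among the 40 was 0.97 (Os07g0209401) against 2.28 for the lowest of the 10, and the highest salt difference was 0.77 (Os07g0208900) against 1.12. Past the chosen end of the range, some IDs fell within that gap. In salt these were Os07g0219300 at 0.97 and Os07g0220000 at 0.86, and in water Os07g0222000 at 1.33. The median difference of the 40 was 0.33 in water and 0.08 in salt, beside medians of 0.11 and 0.07 over all tested IDs. The 40 were not level with WT throughout: in water all 3 osmft1 libraries lay above all 3 WT libraries at 21 of them. Os07g0203925 had the highest ratio in water, 3.23, at 0.58 ± 0.14 FPKM in WT and 1.87 ± 0.09 FPKM in osmft1 (SD, n = 3). It passed the filter with the help of osmft1 libraries, since in WT only salt replicate 3 (1.05 FPKM) reached 1 FPKM. All 3 osmft1 libraries lay above all 3 WT libraries at 31 of the 50 members in water, where 30.8% of all tested IDs did so, and at 15 in salt, against 18.7%. In both treatments at once this held for 10 members (background 5.61%), 9 of the 10 raised ones and Os07g0211101, a low locus at 1.09 ± 0.67 FPKM in WT and 1.85 ± 0.40 FPKM in osmft1 in water (SD, n = 3), named after its values were seen. Leaving out a library can only keep or raise such a count. The salt count was 25 without osmft1 salt replicate 3, while the 18.7% holds for 3 libraries against 3.

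Some members went the other way. All 3 WT libraries lay above all 3 osmft1 libraries in water at 4 members (background 17.2%), Os07g0206700, Os07g0207100, Os07g0208000 and Os07g0209000, and in salt at 3 (background 6.43%), Os07g0208801, Os07g0209401 and Os07g0209500. Os07g0208000 was the most abundant member, at 655.5, 709.5 and 697.5 FPKM in WT and 489.8, 538.7 and 614.6 FPKM in osmft1 in water. Its salt values overlapped, at 498.1, 375.9 and 489.6 FPKM in WT and 486.8, 459.5 and 474.5 FPKM in osmft1. Os07g0206700, the next tested ID after the raised pair, stood at 175, 185.2 and 181.5 FPKM in WT and 129.8, 133.3 and 152.4 FPKM in osmft1 in water. In salt it stood at 78.3, 72.7 and 72.0 FPKM in WT and 92.6, 75.1 and 76.8 FPKM in osmft1. Its log2 difference between the genotypes was thus -0.38 in water and 0.13 in salt, beside 4.04 and 1.80 at the tested ID before it. Os07g0206600, which lies between them, stayed below the filter, at no more than 0.15 FPKM.

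Together with these 2, the members with the lowest mean difference over both treatments were Os07g0209700, Os07g0207301, Os07g0209000 and Os07g0213500. Os07g0209000 stood at 150.3 ± 6.73 FPKM in WT and 130.8 ± 4.49 FPKM in osmft1 in water, and at 99.2 ± 1.27 and 105.8 ± 3.60 FPKM in salt (SD, n = 3). Os07g0213500, the last ID before the group of 8, stood at 49.2 ± 2.79 and 52.6 ± 4.54 FPKM in water and at 56.9 ± 21.0 and 51.3 ± 2.32 FPKM in salt (SD, n = 3). At Os07g0209700 the differences were -0.16 in water and -0.08 in salt, and at Os07g0207301 -0.30 and 0.19. Between Os07g0207100 and Os07g0209500, some members had the genotypes apart in both treatments in opposite directions. The share of all tested IDs with this pattern was not counted, so nothing is read from it. Os07g0207100 and Os07g0209000 were higher in WT in water and higher in osmft1 in salt, and Os07g0208801, Os07g0209401 and Os07g0209500 the reverse. Across the 40 the ratio of mean FPKM, osmft1 to WT, ran from 0.741 to 3.23 in water (median 1.34) and from 0.765 to 2.07 in salt (median 1.07).

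**Figure D3:**
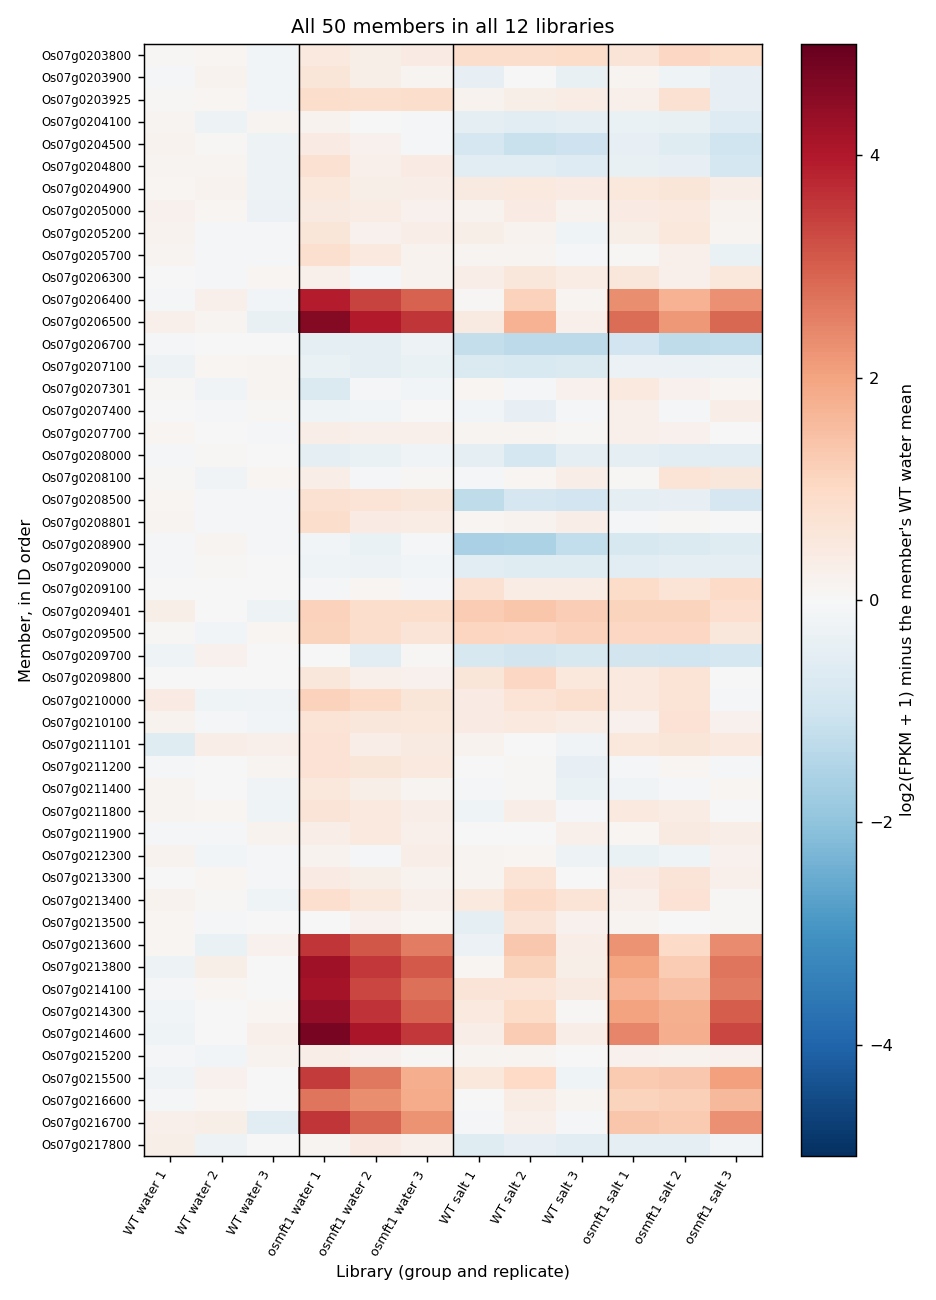
All 50 members (rows, in ID order) in all 12 libraries (columns, by group and replicate), coloured by log2(FPKM + 1) minus the member's mean in WT in water. The 10 raised members form dark red bands in the osmft1 columns, darkest in osmft1 water replicate 1, and the rows between them stay pale.

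Read along the order of IDs, the range began with 11 members, Os07g0203800 to Os07g0206300, whose differences ran from 0.04 to 0.86 in water and from -0.09 to 0.34 in salt. At the first member, Os07g0203800, osmft1 stood at 8.73, 7.62 and 8.36 FPKM and WT at 6.23, 6.47 and 5.26 FPKM in water. In salt the values were 10.01, 13.2 and 12.2 FPKM against 11.97, 11.8 and 12.1 FPKM, so the genotypes were apart in water and overlapped in salt. The next IDs, Os07g0203900 and Os07g0203925, had differences of 0.35 and 0.86 in water and of 0.12 and -0.09 in salt. Just outside the range, Os07g0203275, Os07g0203300 and Os07g0203700 had differences of 1.27, 1.05 and 0.51 in water and of -0.16, 0.13 and -0.09 in salt. The chosen start was thus no step upward in water, and in salt the values on both sides of it lay near 0.

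A sharp step came at Os07g0206400, 2 IDs wide, after which 27 members from Os07g0206700 to Os07g0213500 had a median of 0.29 in water and 0.09 in salt. The main step came at Os07g0213600. Over 9 neighbouring IDs the running median of the water difference reached no more than 0.58 at any member before that ID, and it was 3.07 at it. In salt the corresponding values were 0.31 and 1.35. Within the group of 9 IDs from Os07g0213600 to Os07g0216700, 1 was not raised. Os07g0215200 stood at 41.0, 38.2 and 33.6 FPKM in osmft1 and 30.9, 29.7 and 37.2 FPKM in WT in water, which overlap. Its differences were 0.20 in water and 0.12 in salt, although in salt the osmft1 libraries (36.9 to 38.4 FPKM) all lay above the WT libraries (32.1 to 35.9 FPKM).

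Nor did the rise end with the chosen range. The last member, Os07g0217800, was barely expressed and not raised, at 0.96, 1.36 and 1.14 FPKM in osmft1 and 1.16, 0.50 and 0.75 FPKM in WT in water. It passed the filter with 3 libraries at 1 FPKM, the fewest of any member. Beyond it, Os07g0219300, Os07g0219400 and Os07g0220000 differed by 2.39, 3.19 and 2.53 in water and by 0.97, 1.5 and 0.86 in salt. Os07g0219400 averaged 39.0 ± 15.8 FPKM in osmft1 and 3.32 ± 1.47 FPKM in WT in water, and 17.4 ± 3.60 and 5.64 ± 2.11 FPKM in salt (SD, n = 3). Of the 40 tested IDs after the range, 1 more reached a difference of 1, Os07g0222000, with 1.33 in water and 0.66 in salt.

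The running median stood at 1 or more at 13 centres in water, from Os07g0213600 to Os07g0220000, and at 9 in salt, from Os07g0213600 to Os07g0216700. Of 20131 such windows over all chromosomes, 19 reached 1 in water and 9 in salt, so that every window that did so in salt was centred on a member. The highest window outside the range and its flanks of 40 IDs on each side was 1.83 in water and 0.92 in salt. With windows of 5 and 15 IDs the centres at 1 or more numbered 14 and 11 in water and 10 and 8 in salt. The 40 tested IDs before the range had medians of 0.11 in water and 0.06 in salt, and the 40 after it of 0.17 and 0.09. Each flank held 1 ID at 2-fold or more in both treatments on the log2(FPKM + 1) scale, Os07g0197100 before and Os07g0219400 after. By the ratio of mean FPKM, more flanking IDs passed 2 in both treatments. After the range these were Os07g0219300 (7.61 in water and 2.37 in salt), Os07g0220000 (9.76 and 2.05) and Os07g0222000 (7.05 and 3.21). Before it, Os07g0191650 did so (2.04 and 4.395). The longest run of neighbouring Os loci at 2-fold or more in both treatments was 5, from Os07g0213600 to Os07g0214600, and the next, of 3, was Os07g0215500 to Os07g0216700. Both lie in the range, which was picked on this same contrast, so its windows and runs are described here and not tested.

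The 18 IDs of the range below the filter peaked at 1.23 FPKM (Os07g0204000, with 2 libraries at 1 FPKM), and 1 of them had no read in any library. Their differences in log2(FPKM + 1) ran from -0.43 to 0.55 in water and from -0.14 to 0.18 in salt. Among the 50 members 5 had fewer than 3 WT libraries at 1 FPKM and so passed with the help of osmft1 libraries, and 1 had fewer than 3 such osmft1 libraries. The 5 were Os07g0203900, Os07g0203925, Os07g0213300, Os07g0213600 and Os07g0217800.

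The salt comparison asked how each locus differed between seeds in 300 mM NaCl and in water, within 1 genotype. In WT, salt raised 10 members and lowered 11 (limma over all tested IDs, Benjamini-Hochberg adjusted p under 0.05), beside 27.7% raised and 28.2% lowered among all tested IDs. Os07g0209401 rose from 4.25, 3.20 and 2.54 FPKM in water to 9.42, 10.2 and 9.14 FPKM in salt, which is 1.31 ± 0.16 on the log2 scale (limma, SE, adjusted p = 3.46e-05). Its neighbour Os07g0209500 rose by 1.09 ± 0.18 (SE; limma, adjusted p = 0.000269), from 1.00, 0.74 and 1.03 to 3.06, 2.98 and 3.22 FPKM. At both loci every salt library lay above every water library.

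Among the falls in WT, Os07g0208900 went from 6.44, 7.50 and 6.41 FPKM to 1.55, 1.61 and 2.32 FPKM, or -1.47 ± 0.15 on the log2 scale (limma, SE, adjusted p = 7.92e-06). Os07g0206700 fell by 1.27 on the log2 scale (limma, adjusted p = 1.84e-06), Os07g0208500 by 1.02 (limma, adjusted p = 8.81e-05) and Os07g0204500 by 1.00 (limma, adjusted p = 0.000448). No libraries overlapped between water and salt at these loci. The most abundant member, Os07g0208000, fell by 0.61 (limma, adjusted p = 0.00104).

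None of the 10 raised members passed in WT in the fit of 12 libraries. Their salt differences ran from 0.02 to 0.81 with a median of 0.47, and 0 of 10 passed in limma at an adjusted p under 0.05, 0 at an unadjusted p under 0.05, and 0 with voom on recovered reads. In the fit of WT libraries alone, or without WT salt replicate 3, 1 of the 10 passed. The lowest of the 10 turned negative under upper-quartile scaling (-0.01), without WT water replicate 3 (-0.26) and without WT salt replicate 2 (-0.09). WT salt replicate 2 was the library where each of them was highest, and without it the median was 0.18.

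In osmft1, 22 members passed as lower with salt and 3 as higher, beside 25.5% lower and 20.5% higher among all tested IDs. Of the 22, 12 belong to the other 40 members and 10 are the raised ones. For the raised 10 nothing is read from the call, because they were picked for high values in osmft1, the water libraries included, and such a choice can by itself favour a fall. Their values are a description. Os07g0213800 stood at 97.8, 58.7 and 42.5 FPKM in osmft1 in water and at 19.3, 11.4 and 32.0 FPKM in osmft1 in salt, with no overlap. At Os07g0214300 the treatments overlapped, since salt replicate 3 (166.4 FPKM) stood above water replicate 3 (159 FPKM). The same replicates overlapped at Os07g0215500 (48.8 against 41.3 FPKM) and Os07g0216700 (20.5 against 19.7 FPKM), and at no other of the 10. Across the 10, mean FPKM in osmft1 was 2.13 to 3.17 times as high in water as in salt, and the median log2 difference, salt minus water, was -1.34. It was -1.03 without osmft1 water replicate 1, the highest water library at each of the 10, and -1.62 without osmft1 water replicate 3, the lowest. Leaving out any other osmft1 library gave -1.55 to -1.13. The 3 members higher with salt, Os07g0203800, Os07g0207301 and Os07g0209100, became 5 without osmft1 salt replicate 2.

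Outside the 10, the salt difference passed in both WT and osmft1 at 11 members, in the same direction at all 11, with 9 lower and 2 higher. Of all tested IDs 33.5% passed in both genotypes and 32.6% did so in the same direction, with 17.0% lower in both and 15.6% higher in both, so neither the number of members nor their shared direction stands out. Os07g0208500 fell by 1.02 in WT and by 1.22 in osmft1 (limma, adjusted p = 8.81e-05 and 4.77e-05). Os07g0204500 fell by 1.00 and by 0.85 (limma, adjusted p = 0.000448 and 0.002). Os07g0209100 rose by 0.51 and 0.87 (limma, adjusted p = 0.00449 and 0.000229), and the first member, Os07g0203800, by 0.89 and 0.47 (limma, adjusted p = 8.67e-05 and 0.00926).

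**Figure D4:**
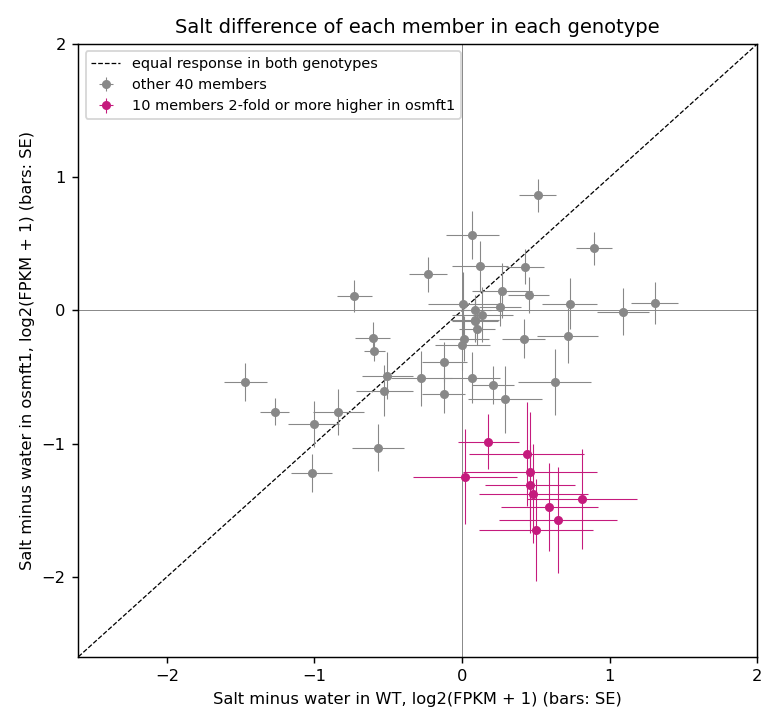
Salt minus water in log2(FPKM + 1) in WT (horizontal) and in osmft1 (vertical) for each of the 50 members, with bars for the SE and a dashed line of equal response. The 10 raised members lie together at the lower right, between 0.02 and 0.81 in WT and between -1.65 and -0.99 in osmft1.

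The interaction asked where the salt difference itself differed between genotypes. It passed at 14 members (limma, adjusted p under 0.05), 11 with a lower value in osmft1 and 3 with a higher one, beside 6.12% and 6.92% of all tested IDs. The interaction is the genotype difference in salt minus that in water, the values behind the choice of the range, so the calls are not independent of it. At the raised 10, of which 7 are among the 11, it ran from -2.23 to -1.16, which restates their larger genotype difference in water and is no test. The count of 11 changed when single libraries were left out, in fits that also had fewer libraries to test with. It was 2 without WT water replicate 3, without osmft1 water replicate 1 or without osmft1 water replicate 2, and 3 without WT water replicate 2. It was 4 without WT salt replicate 2, 5 without osmft1 salt replicate 1, 6 without WT salt replicate 3 and 7 without osmft1 salt replicate 3. The same count rose to 14 without osmft1 water replicate 3 and to 13 without osmft1 salt replicate 2. The count of 3 fell to 1 without WT water replicate 2, osmft1 water replicate 2 or osmft1 salt replicate 3. Over the fits that left out a library, the median interaction of the 10 ran from -2.11 to -1.5. The share of all tested IDs called in those fits is not given beside the counts.

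At 2 members the interaction passed in every alternative. In WT, Os07g0209401 averaged 3.33 ± 0.86 FPKM in water but 9.57 ± 0.52 FPKM in salt, while its osmft1 means were 7.40 ± 0.89 and 7.73 ± 1.01 FPKM (SD, n = 3). The difference of the salt responses was -1.25 ± 0.22 (SE; limma, adjusted p = 0.0132, 0.00617 to 0.0339 over the alternatives). Os07g0207100 had the opposite sign, at 11.1 ± 1.64 and 6.24 ± 0.10 FPKM in WT and 8.22 ± 0.50 and 8.92 ± 0.22 FPKM in osmft1 (SD, n = 3; interaction 0.84 ± 0.17, SE; limma, adjusted p = 0.017, 0.0071 to 0.0444 over the alternatives). Neither is among the 10, but both belong to the range and so share that limit. Both passed for salt in WT and missed the threshold in osmft1, where the salt difference was 0.05 ± 0.16 at Os07g0209401 and 0.11 ± 0.12 at Os07g0207100 (SE; limma, adjusted p = 0.801 and 0.481).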

How the data were processed

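RNA from 12 rice seed libraries was sequenced, and the authors deposited 1 value per ID in each library, with no header that states a unit. The deposited values were read as FPKM, since within an ID they step by whole reads. For tested IDs, 100% of nonzero values gave whole reads with a tolerance of 0.003, and the reads so recovered covered 99.9829% or more of the total of any library. Per the submitters' processing notes the build was IRGSP-1.0 and the tools, given with no role or order, were HTSeq 0.6.0, Bowtie2 2.2.3 and HISAT2 2.1.0. The strand setting is not given in the sources used here, so reads of overlapping genes cannot be told apart.

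Titles of the samples gave the groups. The IDs with at least 1 FPKM in 3 libraries (22017 of 35204) were fitted on log2(FPKM + 1) with limma 3.58.1 in R 4.3.3, with 1 mean per group, a variance trend and 8 residual degrees of freedom. Each comparison was adjusted by Benjamini-Hochberg over all tested IDs, with calls at an adjusted p under 0.05. A fold on the log2(FPKM + 1) scale understates the change of low loci. The fit and the recovery of reads were tested on simulated data. The range and the rules were chosen with earlier results of these data known. Loci named were the 3 tested IDs on each side of both ends, the 8 highest and 6 lowest by mean genotype difference, the 4 largest rises and 4 largest falls with salt, the 4 most abundant, the 6 smallest interaction p, and others in order along the range after their values were seen. Of all IDs 1, and 0 members, matched the gene table of the assembly used for names. Alternatives were another pseudocount, other filters, 2 other scalings, a replicate block, voom on recovered reads, fits of 6 libraries, other windows and leaving out each library. Python 3.11.15, pandas 2.3.3, numpy 2.4.6, scipy 1.17.1 and matplotlib 3.10.9 were used.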

Additional observations from a re-analysis of the deposited data

Results flagged for a closer look

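The interaction passed at 14 members (limma, adjusted p under 0.05), 11 lower and 3 higher in osmft1, beside 6.12% and 6.92% of all tested IDs. It passed in every alternative at 2 of the 14, and at 0 of the 7 raised members among them. The interaction is built from the genotype differences on which the range was picked, so its values at the 10 raised members are a description and no test. Among the 10 raised members the interaction (salt response in osmft1 minus that in WT, log2) was -1.77 at Os07g0206400 and -2.23 at Os07g0206500. In the group near the end it was -2.15 at Os07g0213800, -2.07 at Os07g0214100, -1.86 at Os07g0214300, -2.22 at Os07g0214600 and -1.16 at Os07g0216600. In the stretch between, it was 0.51 at Os07g0206700, 0.84 at Os07g0207100 and 0.93 at Os07g0208900, where the fall with salt seen in WT was smaller or did not pass in osmft1. It was -1.25 at Os07g0209401 and -1.10 at Os07g0209500, which rose with salt in WT and differed by 0.05 and -0.01 between salt and water in osmft1 (log2, not past the threshold). It was -0.77 at Os07g0208801 and -1.17 at Os07g0210000, in the same stretch. At Os07g0209401 and Os07g0209500 the osmft1 water libraries stood above all WT water libraries.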

How the results depend on the processing

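The count of members with a lower interaction was 4 with no filter on low values, where more IDs were tested. The water median of the genotype difference over the members, 0.383, was 0.52 with a pseudocount of 0.1, 0.215 with median-ratio scaling and 0.538 with voom, which takes no pseudocount of 1. Median-ratio scaling moved the median of all tested IDs in water from 0.11 to -0.059, and the members lay above it by 0.273 before and 0.274 after. The salt median, 0.123, was 0.065 with no filter, 0.053 with median-ratio and 0.054 with upper-quartile scaling. Leaving out 1 library at a time gave 1 to 4 higher and 2 to 14 lower interactions, 3 to 5 members higher with salt in osmft1 and salt medians of 0.092 to 0.198. It gave 15 to 25 members with all osmft1 libraries above all WT libraries in salt, a count that can only stay or rise in this way. Beyond the constructions named, the cause was not tested. All 10 raised members stayed 2-fold higher in both treatments under the other pseudocount, filters, scalings and tests. In salt 9 did so without WT salt replicate 3 and 8 without osmft1 salt replicate 3. Deviations of same-numbered libraries from their group means correlated at r from -0.191 to 0.241 (18 pairs, 4 of them over 0.1). Libraries of different groups and numbers spanned a wider range, r from -0.250 to 0.326. With the replicate number as a block, the calls were 10 higher and 10 lower for salt in WT, 3 and 21 in osmft1, and 4 and 11 for the interaction, and the member medians stayed at 0.383 and 0.123. Of the single-member tests, leaving out a library ended 135 calls and made 19, and none changed direction while called.
 Depth limits the lowest members, such as Os07g0213600 with 15 reads in all in WT in water.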
